A study of Zea mays with 6 samples.

Results

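Of the 39625 gene models measured in maize pollen, 4 that carry MYB-type names were described here: MYBR95 (GRMZM2G115070), MYB-IF35 (GRMZM2G051256), MYBR22 (GRMZM2G468479) and MYBR26 (GRMZM2G112764). They were picked by identifier because their transcripts were higher in heat than in control pollen, so the differences between heat and control given for them are descriptions and carry no test. The RNA came from ripe pollen of B73, an inbred line of maize, in 3 control and 3 heat libraries that the labels call biological replicates. Control plants grew with days of 25 °C and nights of 21 °C. Heat plants spent 48 h with days of 35 °C and nights of 25 °C while their anthers held tetrads, the groups of joined microspores that meiosis leaves. Both groups had 60% air humidity in the chambers, carried no transgene or mutation that the labels name, and were grown on in the greenhouse until the pollen was mature. The heat pollen was thus collected well after the heat had ended.

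MYB proteins bind DNA through a helical repeat that is marked by regularly spaced tryptophans, and plants hold them in large families. Proteins with a pair of adjacent repeats form the largest plant class, which includes the maize regulators of anthocyanin and phlobaphene pigments. The MYB-related class, named MYBR in maize, mostly has a single repeat and includes clock proteins and telomere-binding proteins in plants. MYB-IF35 belongs to the class with a pair of repeats, and its expression in cultured maize cells is known to raise phenolic acids. What the 3 MYBR proteins do in maize pollen was not given in the sources used here.

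Levels were deposited as TPM, in which reads are divided by gene length and scaled to a common total in every library. The reads rebuilt from them numbered 20978451 to 28640667 in the control libraries and 19086616 to 19745003 in the heat libraries, so that the controls were sequenced more deeply throughout. All 7 mature pollen markers that could be matched were present, with a summed level of 38090 to 40070 TPM in the control and 38500 to 41260 TPM in the heat libraries. These sums do not show that each marker was steady. In control and heat pollen prf1 had 2262 ± 142 and 2851 ± 358 TPM, and prf2 had 7183 ± 473 and 7894 ± 373 TPM. The values were 2178 ± 60.5 and 2729 ± 185 TPM for prf3, and 176.0 ± 7.85 and 211.5 ± 7.90 TPM for rop2. Lower after heat was pme1, at 8941 ± 159 and 7541 ± 340 TPM. For mgs1 they were 18390 ± 290 and 18440 ± 568 TPM, and for hap2 6.856 ± 0.937 and 7.415 ± 0.555 TPM. The 11 green tissue markers summed to at most 0.904 TPM in any library, and none of the 4 matched named MYB pigment and leaf regulators (c1, p1, pl1 and rs2) had a read. The 5 anther wall and tapetum markers summed to 2.66 to 3.38 TPM in control and to 4.02 to 4.49 TPM in heat, without overlap. The higher sum came from ms32 (1.62 and 3.17 TPM), a bHLH factor gene, whereas ms26 had 1.25 and 0.886 TPM, ms8 and ms23 were below 1 TPM and ocl4 was at 0 in every library. The part of anther wall RNA in the results below was not tested. The labels' tissue was bulk pollen, where fewer cells of a type and less RNA per cell cannot be told apart. Heat replicates 1 and 2 were run on lanes that held no control library, whereas heat replicate 3 shared its 3 lanes with the controls.

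MYBR95 showed the largest difference of the 4 genes on log2(TPM + 1). Its level was 4.13, 4.01 and 4.40 TPM in controls 1, 2 and 3 and 20.5, 26.9 and 26.9 TPM in heat replicates 1, 2 and 3. Every heat library lay above every control library, as for 23.2% of all tested gene models, and the lowest heat library held 4.66 times the level of the highest control library. The means were 4.18 ± 0.20 TPM in control and 24.8 ± 3.65 TPM in heat (SD, n = 3 each), a ratio of 5.92. These values rest on 51 to 66 reads per control library and 224 to 293 reads per heat library. On log2(TPM + 1), the scale of all differences below, heat exceeded control by 2.30 (SE 0.12), which was the rank 8 difference among the 8615 tested gene models. By mean level, MYBR95 stood at rank 4435 of the tested gene models in control pollen and at rank 1755 in heat pollen.

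MYB-IF35 was near the limit of the test filter in control pollen, with 1.09, 0.705 and 0.804 TPM in controls 1, 2 and 3. In heat replicates 1, 2 and 3 it had 5.07, 6.46 and 5.59 TPM. The groups did not overlap, and heat replicate 2 was the highest library and control 2 the lowest. Its mean was 0.868 ± 0.202 TPM in control pollen and 5.71 ± 0.70 TPM after heat, a ratio of 6.58, the highest ratio of the 4 genes. The difference on log2(TPM + 1) was 1.84 (SE 0.13) and is understated at this low level, since the ratio alone would place it above MYBR95. Control libraries held 16 to 30 reads of MYB-IF35 and heat libraries 95 to 121.

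MYBR22 was the least abundant of the 4 genes in both groups. Controls 1, 2 and 3 held 0.670, 0.638 and 0.885 TPM, and heat replicates 1, 2 and 3 held 2.73, 2.32 and 2.92 TPM. All heat libraries were above all control libraries, and here heat replicate 2 was the lowest heat library. The means were 0.731 ± 0.134 and 2.66 ± 0.31 TPM, with a ratio of 3.64 and a log2 difference of 1.08 (SE 0.13). Because its gene model is long (3957 bases), the low level still rested on 37 to 47 reads per control and 111 to 139 reads per heat library. No control library reached 1 TPM, and MYBR22 passed the filter of 1 TPM in at least 3 libraries only through its heat libraries. MYB-IF35 also needed its heat libraries to pass, with 1 control library at 1 TPM or more.

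MYBR26 was well expressed in both groups and differed least. Its level was 15.0, 14.6 and 14.9 TPM in controls 1, 2 and 3 and 20.01, 24.7 and 24.2 TPM in heat replicates 1, 2 and 3. The groups did not overlap, but heat replicate 1 was only 1.33 times the highest control library. The means were 14.8 ± 0.23 and 23.0 ± 2.59 TPM, a ratio of 1.55 and a log2 difference of 0.59 (SE 0.10), based on 366 to 510 reads per control and 464 to 574 reads per heat library. With heat replicate 1 alone against the controls the difference was 0.41 (SE 0.13), and with replicates 2 and 3 alone it was 0.70 and 0.67 (SE 0.13 each).

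**Figure D1:**
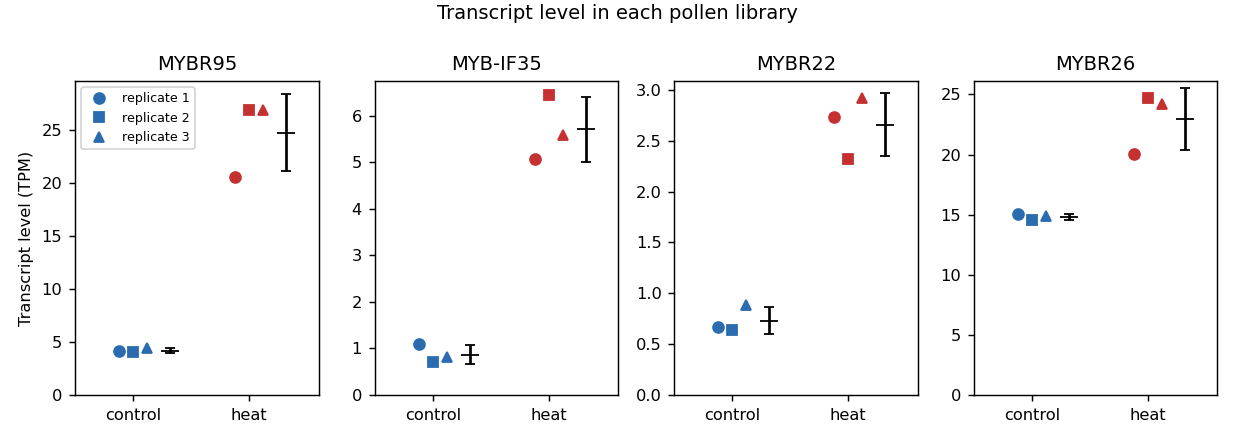
Transcript level in TPM (vertical axes from 0, a scale for each gene) of MYBR95, MYB-IF35, MYBR22 and MYBR26 in the 3 control (blue) and 3 heat (red) libraries; symbols mark the replicate number and black bars the mean ± SD. Heat libraries lie above control libraries in each panel, with the widest gap relative to level in MYBR95 and MYB-IF35 and the narrowest in MYBR26, from 15.0 to 20.01 TPM.

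The spread within groups differed among the 4 genes. Control libraries varied most for MYB-IF35 (coefficient of variation 23.3%) and MYBR22 (18.4%), the genes with the fewest reads, and least for MYBR26 (1.58%) and MYBR95 (4.80%). Among heat libraries the coefficient was 11.3% to 14.8% in all 4 genes, which for MYBR95 and MYBR26 was wider than in control. Heat replicate 1 was the lowest heat library for MYBR95, MYB-IF35 and MYBR26, but not for MYBR22. Relative to the control mean, heat replicate 1 held 4.91 times the level of MYBR95, 5.84 times that of MYB-IF35, 3.74 times that of MYBR22 and 1.35 times that of MYBR26. Heat replicate 3, on the lanes of the controls, held 6.42, 6.44, 4.0 and 1.63 times the control mean in the same order. Within the shared lanes the log2 values were 2.43 (SE 0.16) for MYBR95, 1.82 (SE 0.20) for MYB-IF35, 1.18 (SE 0.19) for MYBR22 and 0.67 (SE 0.13) for MYBR26. That library was among those used to choose the genes, and the part of the lane in the differences was not tested. The lone heat library was assumed there to vary like the controls, and no control library ran on the other lanes.

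The order of levels among gene models with MYB names differed between control and heat pollen. In control pollen the most abundant of the 66 gene models with a name that begins with MYB was MYBE1 (GRMZM2G145041) at 48.9 ± 0.82 TPM, followed by MYBR100 (GRMZM5G833032) at 15.1 ± 0.66 TPM and MYBR26 at 14.8 TPM, whose libraries overlapped. MYBR95 followed at rank 4, while MYB-IF35 and MYBR22 held ranks 9 and 12. In heat pollen MYBE1 still led, at 42.0 ± 1.09 TPM. MYBR95 then stood at rank 2 and MYBR26 at rank 3, and their heat libraries overlapped (20.5 to 26.9 and 20.01 to 24.7 TPM). MYBR100 came after them at 15.2 ± 1.88 TPM, then MYB-IF35, and then MYBR67 (GRMZM2G049194) at 2.81 TPM and MYBR22 at 2.66 TPM, which overlapped. Together the 4 genes held 19.9 to 21.0 TPM in control libraries and 48.4 to 60.4 TPM in heat libraries, or 21.3% ± 0.59 and 45.1% ± 2.51 of the summed level of all 66 (SD, n = 3 each). The other 62 gene models summed to 74.3 to 78.5 TPM in control and to 66.2 to 69.2 TPM in heat. These 62 are those left once the 4 had been picked for being higher, so the contrast partly follows from the choice. On average their sum went from 76.0 to 68.0 TPM, and MYBE1 alone went from 48.9 to 42.0 TPM. Limma did not call MYBE1 (adjusted p = 0.0563), and its call depends on the scaling, as given below. The lower sum thus does not show that the 62 fell as a set.

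**Figure D2:**
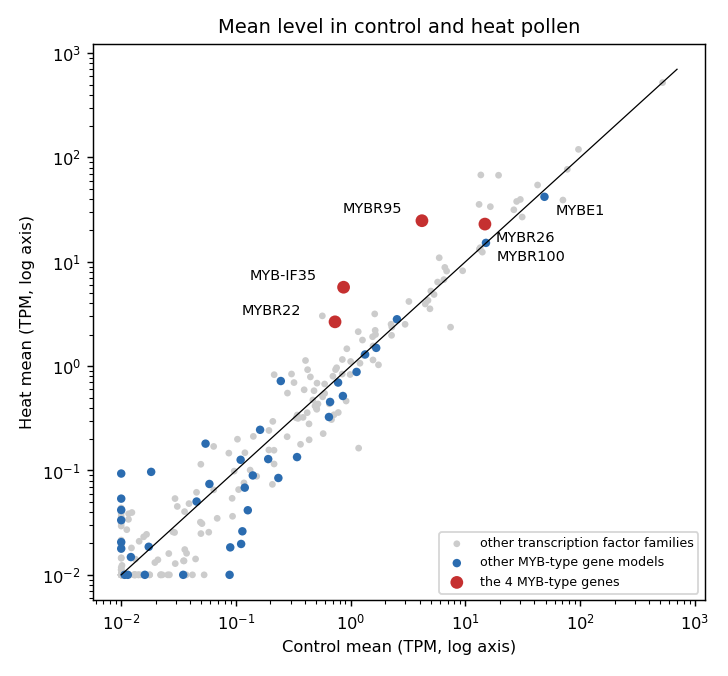
Mean level in heat (vertical) against control (horizontal) pollen, both in TPM on log axes, for the 4 genes (red), the other detected gene models with MYB names (blue) and 14 other transcription factor families (grey); means under 0.01 TPM are drawn at 0.01 and the line marks equal levels. MYBR95, MYB-IF35 and MYBR22 stand off the line, MYBR26 lies just above it, and MYBE1 and MYBR100 lie on or just below it.

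Most gene models with MYB names were not detected at a level that could be tested. Only 2849 of the 39625 gene models carry a name, and MYB regulators such as p1 and rs2 carry other names. The 66 are thus not the whole MYB family of maize. Of the 66 gene models, 23 had no read in any library, 33 were above 0 without passing the filter, and 10 were tested. Across all genes, limma placed 20.2% of the 8615 tested gene models past the threshold (adjusted p under 0.05), 13.0% as higher after heat and 7.15% as lower. Among the 10 tested MYB-type genes, 4 were past it as higher, which are the 4 genes picked for this, and 0 as lower. The median log2 difference was 0.06 over the 10 genes and 0.04 over all tested genes. With no filter on low levels, limma fitted 24654 gene models and called 4.90% of them, 3.01% as higher and 1.89% as lower. Of the 43 MYB-type genes in that fit, 5 were then higher and 0 lower, the fifth being MYBR72 (GRMZM2G700011), with 1 read in each heat library and 0 in each control library.

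The other 6 tested genes were those left once the 4 had been picked, so that 0 higher calls among them follows from the choice. Limma also called 0 of them as lower, and at an unadjusted p under 0.05 there was 1, MYBE1, as lower. MYBE1 had 48.0, 49.1 and 49.7 TPM in controls 1, 2 and 3 and 41.1, 43.2 and 41.6 TPM in heat replicates 1, 2 and 3. All its heat libraries were below all its control libraries, as for 13.3% of all tested genes. The log2 difference of -0.22 (SE 0.07) missed the threshold in limma (adjusted p = 0.0563). MYBE1 did pass with limma-voom on the rebuilt reads (-0.28, adjusted p = 0.0124), as it did under 3 other scalings, so its call depends on the scaling.

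Libraries of the remaining 5 overlapped between the groups. MYBR100 had 14.4, 15.4 and 15.6 TPM in controls 1, 2 and 3 and 13.1, 15.6 and 16.9 TPM in heat replicates 1, 2 and 3, so that heat pollen held both its lowest and its highest value. MYBR67 had means of 2.53 ± 0.23 and 2.81 ± 0.20 TPM, a log2 difference of 0.11 (SE 0.12, limma adjusted p = 0.574), the next value below that of MYBR26. MYBR101 (GRMZM2G136887), also named SMH1, of the single-MYB histone proteins that bind telomeric DNA, had 1.67 ± 0.26 and 1.496 ± 0.23 TPM (limma adjusted p = 0.664). MYBR88 (GRMZM2G064328), also named chb102, which carries the alias of a subunit of SWI/SNF chromatin remodelling complexes, had 1.34 ± 0.25 and 1.29 ± 0.25 TPM (limma adjusted p = 0.918). MYBR58 (GRMZM2G170322) had 1.13 ± 0.45 and 0.880 ± 0.205 TPM (limma adjusted p = 0.534). These p-values do not show that the 5 genes were equal in both groups.

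**Figure D3:**
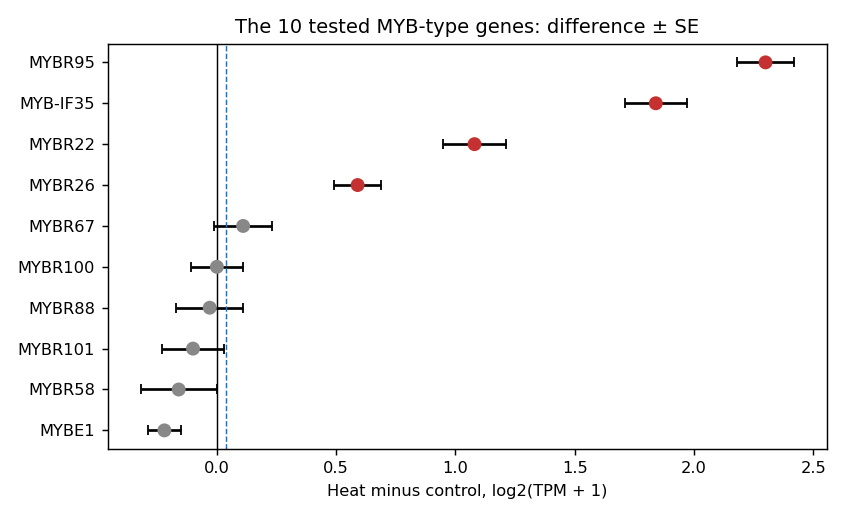
Difference between heat and control on log2(TPM + 1) for the 10 tested MYB-type genes (points, with bars for ± SE of the limma fit); red points are the 4 genes chosen for being higher, grey points the 6 others, and the dashed line is the median of all tested genes (0.04). The 4 chosen genes run from 0.59 to 2.30 and the others from -0.22 to 0.11.

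The 33 gene models above 0 that were not tested had mean levels of at most 0.737 TPM over the 6 libraries. Every heat library was below every control library for 8 of them (24.2%) and above for 4 (12.1%). The same held for 6.56% and 5.34% of the 16039 untested gene models above 0 across all genes. These counts were compared without a test, and the control libraries were deeper throughout. Some rest on very few reads: MYBR86 among the lower had 4 in control and 0 in heat, and MYBR72 among the higher had 0 and 3. The best covered of the lower ones was MYB59 (GRMZM2G093789), with 16 to 23 reads per control library and 5 to 13 per heat library (0.647 ± 0.082 and 0.326 ± 0.162 TPM). MYBR43 (GRMZM5G813892) had 0.662 ± 0.045 and 0.454 ± 0.072 TPM. A gene model listed as MYB1_2 (GRMZM5G892094) overlapped between groups, at 0.856 ± 0.250 and 0.517 ± 0.215 TPM. The other gene model listed as MYB1_2 (GRMZM2G050305) also overlapped, at 0.140 ± 0.158 and 0.0896 ± 0.155 TPM. The genes of this paragraph were named after their values were seen.

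Genes of pathways in which MYB proteins act were examined next. Of 16 gene models of phenylpropanoid and flavonoid synthesis, which maize MYB regulators of the class with a pair of repeats control, 3 were tested. Their median log2 difference was -0.20, and limma called 0 of them, with 1 at an unadjusted p under 0.05 and 1 called as lower by limma-voom. The gene at an unadjusted p under 0.05 was chi1 (GRMZM2G155329), of the chalcone isomerase step, with means of 189 ± 14.7 and 164 ± 10.1 TPM in control and heat pollen (limma adjusted p = 0.0972). PAL1 (GRMZM2G074604), for the entry enzyme phenylalanine ammonia-lyase, had 3.17 ± 0.14 and 3.43 ± 0.91 TPM, and A1 (GRMZM2G026930), for dihydroflavonol reductase, had 1.44 ± 0.47 and 0.933 ± 0.174 TPM. The chalcone synthase genes c2 (GRMZM2G422750) and whp1 (GRMZM2G151227) had 0.0243 and 0.0332 TPM in control, and whp1 had no read in heat. The pattern for the clock, which MYB-related proteins help to run in plants, matched 6 gene models, although the names of a pair of these, toc34 and toc35, belong to plastid import proteins. Limma tested 3 of the others and called 1, as lower, beside 7.15% of all tested genes called as lower. This was gigz1a (GRMZM2G107101), a GIGANTEA homologue, which fell from 5.28 ± 0.65 TPM in control to 3.49 ± 0.20 TPM after heat. Its log2 difference was -0.48 (SE 0.12, limma adjusted p = 0.0146). Not called were gigz1b (GRMZM5G844173), at 1.63 ± 0.18 and 1.53 ± 0.24 TPM (limma adjusted p = 0.803), and conz1 (GRMZM2G405368), at 0.984 ± 0.358 and 1.02 ± 0.13 TPM (limma adjusted p = 0.882).

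Among 300 gene models of 14 other named transcription factor families, 49 were tested, of which 13 (26.5%) were past the threshold as higher and 4 (8.16%) as lower, beside 13.0% and 7.15% of all tested genes. Limma-voom called 11 and 5 of the 49, beside 21.7% of all tested genes, 11.7% as higher and 10.0% as lower. The TIFY family, which holds the JAZ repressors of jasmonate signalling, gave 5 higher of 13 tested (4 with limma-voom), with TIFY20 (GRMZM2G173596) at 13.6 ± 0.34 and 68.0 ± 6.45 TPM. In the bHLH family 2 of 7 were higher, among them ms32 of the anther wall markers. The ARF names, which in maize may also stand for ADP-ribosylation factors, gave 2 higher of 3 (1 with limma-voom), and the EREB family of ethylene-response type factors gave 2 higher and 1 lower of 5. EREB139 (GRMZM2G103085) went from 0.567 ± 0.141 to 3.03 ± 0.44 TPM, a change of 1.36 on the log2 scale (SE 0.13, limma adjusted p = 2.51e-05). EREB139 was below 1 TPM in each control library and passed the filter only through its heat libraries, a gene that had to differ. It shares with MYB-IF35 and MYBR22 a control mean below 1 TPM and a heat mean above 2 TPM. Of 3 tested heat shock factor gene models (HSF names), Hsf01 (GRMZM2G165998) was higher, at 1.16 ± 0.11 and 2.14 ± 0.33 TPM. A gene model of Hsf05 (GRMZM2G132971) was lower, at 1.75 ± 0.09 and 1.03 ± 0.17 TPM. The other gene model of Hsf05 (GRMZM2G133023) overlapped between groups, at 4.47 ± 0.15 and 3.94 ± 0.62 TPM, and was not called (limma adjusted p = 0.431). MADS76 (GRMZM2G070034), of the MADS-box factors, was higher, at 5.92 ± 0.63 and 10.9 ± 1.03 TPM, and limma-voom also called 1 MADS gene as lower. In the GLK family, whose proteins have a single MYB-like repeat, 1 of 2 tested genes was called, and it was lower: GLK44 (GRMZM2G124540), at 7.43 ± 0.27 and 2.36 ± 0.80 TPM. The NAC family likewise gave 1 lower of 4 tested, NAC1 (GRMZM2G347043), at 1.17 ± 0.16 and 0.164 ± 0.172 TPM, which passed the filter only through its control libraries. Limma called 0 of 3 bZIP, 0 of 2 WRKY, 0 of 2 SBP and 0 of 1 HB genes, with 0 at an unadjusted p under 0.05 and 0 by limma-voom in each.

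The profile over the 6 libraries was compared with that of every other tested gene, as the root mean square difference of log2(TPM + 1) after each gene's control mean was taken off. The gene most like MYBR95 of 8614 was TIFY20, at a distance of 0.088, with 60.8, 73.4 and 69.7 TPM in heat replicates 1, 2 and 3, and the next named gene was MYB-IF35 itself, at 0.346 (rank 14). The named genes most like MYB-IF35 were bx6 (GRMZM6G617209), whose dioxygenase acts in the synthesis of benzoxazinoids, at 0.148, and TIFY4 (GRMZM2G445634) at 0.151, at ranks 6 and 7. Those most like MYBR22 were TIFY24 (GRMZM2G126507) at 0.145 and ARGOS6 (GRMZM2G162250) at 0.158, at ranks 26 and 30. For MYBR26 they were LSD1 (GRMZM2G173425) at 0.048 and ak1 (GRMZM2G327406) at 0.052, at ranks 3 and 7. TIFY genes stood among the 2 nearest named genes for MYBR95, MYB-IF35 and MYBR22, but only 2849 gene models carry a name. The nearest genes of all had no name for MYB-IF35 (GRMZM2G162396, at 0.052), MYBR22 (GRMZM2G042733, at 0.067) and MYBR26 (GRMZM2G362823, at 0.046). The distances rest on the same 6 libraries as the choice of the 4 genes and mainly reflect the size of the step between groups.

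**Figure D4:**
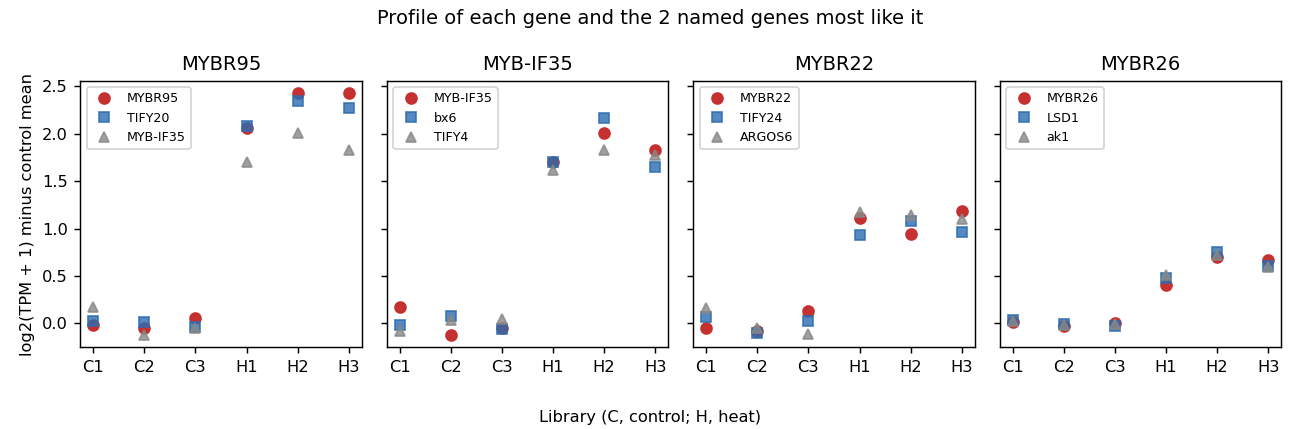
log2(TPM + 1) minus each gene's own control mean (vertical) in control (C1 to C3) and heat (H1 to H3) libraries for MYBR95, MYB-IF35, MYBR22 and MYBR26 (red circles) and the 2 named genes most like each (blue squares and grey triangles). TIFY20 follows MYBR95 at a distance of 0.088, and LSD1 follows MYBR26 at 0.048.

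Position in the genome was taken as gene order alone, from a later maize assembly. None of the 4 genes overlapped another gene there. The gene directly before MYBR95 was another MYB-related gene, MYBR45 (GRMZM2G415077), which had no read in any of the 6 libraries, and the gene directly after it (GRMZM2G132084) had 3 reads in all. The nearest measured genes on both sides of the other 3 were at most 3 gene places further off. Of these, limma tested GRMZM2G368662 beside MYB-IF35 (481.5 ± 19.8 and 468.7 ± 26.3 TPM, adjusted p = 0.724) and GRMZM6G244811 beside MYBR26 (5.09 ± 0.53 and 4.48 ± 0.78 TPM, adjusted p = 0.447), and called 0. Neither had an unadjusted p under 0.05, and limma-voom also called 0. The untested gene after MYBR22 (GRMZM2G115198) had all heat libraries above all control libraries, as for 5.34% of untested gene models above 0. Its level was 0.0718 ± 0.0074 and 0.154 ± 0.037 TPM, on 11 control and 19 heat reads.

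The differences of the 4 genes were above 0 under each of the 20 other settings computed, a direction that the choice of genes with non-overlapping libraries largely fixes. Their size depended on the setting. With a pseudocount of 0.1 the log2 difference of MYB-IF35 was 2.60 (SE 0.19), above the 2.53 (SE 0.13) of MYBR95. With a pseudocount of 5, MYBR22 came out at 0.42 (SE 0.05), below the 0.49 (SE 0.08) of MYBR26. Limma-voom gave the highest values of MYB-IF35 (2.62) and MYBR22 (1.82), and the lowest value of MYBR26 was that of heat replicate 1 alone.

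**Figure D5:**
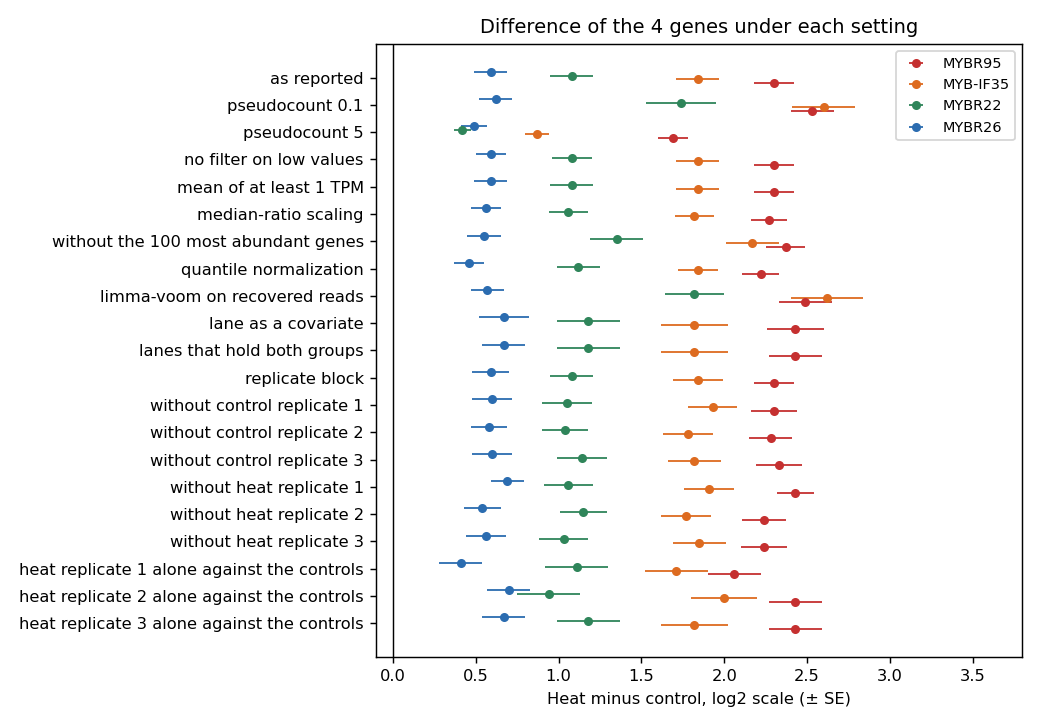
Difference between heat and control on the log2 scale (horizontal, ± SE) for the 4 genes under the reported setting and 20 others (rows). All values lie above 0, and between pseudocounts of 5 and 0.1 MYB-IF35 and MYBR22 shift from 0.87 to 2.60 and from 0.42 to 1.74.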

How the data were processed

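RNA sequencing of 6 pollen libraries was deposited as 1 table of TPM values, made by the authors from libraries of a kit that marks strand, per the labels' protocols, and used as deposited. The lane number of each library (another quantity, taken from the deposited sample sheets) came per the file headers. Trimmomatic 0.35, FastQC, STAR 2.5.2a, featureCounts and DESeq2 and the build B73 RefGen_v3 were used per the submitters' processing notes, without roles. The sources used here do not give how strand and reads with several mapping places were handled, so near-identical family members could share reads.

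Gene names are those of RefSeq for the assembly Zm-B73-REFERENCE-NAM-5.0, whose table matched 19060 gene models and named 2849. No sequences were used, and coordinates of that assembly served only for gene order and overlap. Whole reads and gene lengths were rebuilt from ratios of TPM for all 24654 gene models above 0, within 0.01 reads; a common divisor can remain in low genes. Limma 3.58.1 (R 4.3.3) was run on log2(TPM + 1) (trend, two-sided, Benjamini-Hochberg over 8615 gene models with at least 1 TPM in at least 3 libraries, threshold 0.05). The p-values set the difference between groups against the spread between these libraries within a group. Libraries of a group differed beyond sampling noise (chi-square per degree of freedom at least 6.73). The rebuilding of reads and the limma test were tested on simulated data.

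The 4 genes and the lists were chosen with earlier results of these data known. Lists are patterns on names: names beginning with MYB (MYBE1 included), other factor families, phenylpropanoid and clock genes, and markers. Genes named are the 4 genes, the 2 named genes most like each, the tested MYB-type genes, and called or most abundant members of other lists. Genes beside the 4, the nearest genes without a name, untested MYB-type genes and further list members were given outside this rule, after their values were seen. Alternatives were other pseudocounts, filters, scalings, limma-voom, lane, the replicate number as a block, and each library left out. Same-numbered libraries were checked for pairing.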

Additional observations from a re-analysis of the deposited data

How the results depend on the processing

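The number of MYB-type genes past the threshold was 3 to 5 over the 20 other settings, a description that consists mostly of the 4 genes chosen on this contrast. It was 3 with heat replicate 1 alone, where MYBR26 missed the threshold (log2 difference 0.41). It was 5 under median-ratio scaling, without the 100 most abundant genes, under quantile normalization and with limma-voom, each time through MYBE1 as lower (-0.25, -0.28, -0.36 and -0.28). It was also 5 with no filter, through MYBR72 (GRMZM2G700011), which had 1 read in each heat library and none in control. The comparisons of a lone heat library with the controls were chosen after the data had been seen. Log2 differences that moved by more than the spread between libraries were, for MYBR95, 2.53 and 1.69 with pseudocounts of 0.1 and 5, 2.49 with limma-voom and 2.06 with heat replicate 1 alone. For MYB-IF35 they were 2.60, 0.87 and 2.62 in the first 3 of these settings, 2.17 without the 100 most abundant genes and 2.00 with heat replicate 2 alone. For MYBR22 they were 1.74, 0.42, 1.82, 1.35 and 0.94 in the same order, and for MYBR26 0.46 under quantile normalization and 0.41 with heat replicate 1 alone. With single libraries left out the values ran from 2.24 to 2.43 for MYBR95, 1.77 to 1.93 for MYB-IF35, 1.03 to 1.15 for MYBR22 and 0.54 to 0.69 for MYBR26. Of the genes not called, MYBR100, MYBR88 and MYBR58 changed sign around 0. MYBR67 (0.02 to 0.17), MYBR101 (-0.25 to -0.00) and MYBE1 (-0.36 to -0.18) kept theirs under the other settings. For MYBR100 (-0.00) the values were 0.00 with a pseudocount of 5, 0.15 with the lane as a covariate or within the shared lanes (heat replicate 3 alone), 0.04 with heat replicate 2 alone, and -0.07 to 0.09 with a library left out. For MYBR88 the value was 0.15 with heat replicate 1 alone and -0.12 to 0.03 with a library left out, and for MYBR58 -0.29 to 0.00. Over all genes 1739 were past the threshold, against 654 when the lane was a covariate, 994 within the shared lanes and 692 with heat replicate 1 alone; with a library left out 1218 to 1820. Higher genes made up 64.6% of these, 53.1% without the 100 most abundant genes, 53.8% with limma-voom and 47.8% under quantile normalization. The cause of these shifts was not tested. Same-numbered libraries deviated with correlations of 0.119, 0.130 and -0.050, and differently numbered ones with -0.248 to 0.162. With deviations taken from means of 3 libraries, this check cannot exclude that the numbers pair the samples. The replicate block gave 1785 genes and left the 4 differences at 2.30, 1.84, 1.08 and 0.59. Depth limits MYB-IF35 in control pollen most, at 16 reads in 2 of its libraries.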
